A study of Homo sapiens with 6 samples.

Results

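Among the genes that hold p53 in check, MDM2 and PPM1D rose and MDM4 fell in HCT116 cells after 24 h with oxaliplatin, whereas CCNG1 and RCHY1 did not pass the test. These 5 genes were taken by their symbols from the 27942 genes of the deposited table, and each symbol had 1 row. p53 itself was not analysed here. HCT116 is an established human colorectal carcinoma line, described by the study as wild-type for p53 and APC and mutated in CTNNB1. RNA was sequenced from 3 libraries of untreated cells (NT) and 3 libraries of cells treated with 0.5 µM oxaliplatin (OXA), the concentration given as the IC50, for 24 h. Oxaliplatin is a platinum drug that crosslinks DNA, and the study profiled these cells to describe their early response to it. The labels state 1 line and 1 treatment and do not say whether the 3 libraries of a group came from separate cultures, so p-values measure the spread between these libraries, which may be technical.

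p53 is a transcription factor that is kept scarce in unstressed cells by ubiquitination, and it is stabilised when DNA is damaged. MDM2 encodes the main E3 ubiquitin ligase of p53 and is itself a p53 target gene, which closes a negative feedback loop. MDM4 encodes a related protein that binds the transactivation domain of p53 and joins MDM2 in a heterodimer. PPM1D encodes the phosphatase WIP1, which removes phosphates placed by the DNA damage kinases on p53, on those kinases and on histone H2AX. CCNG1 encodes cyclin G1, which recruits the phosphatase PP2A to MDM2, and RCHY1 encodes PIRH2, another E3 ligase of p53.

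Library totals lay between 32979521 and 40967880 counts, and the 5 genes had between 876 and 31654 raw counts in a library. Counting error alone is 3.38% at the lowest of these values. The epithelial genes EPCAM, KRT8 and KRT18 were at 9963, 39182 and 30144 normalized counts in NT and at 9689, 54402 and 37416 in OXA, whereas VIL1, a brush border gene, was at 79.2 and 60.7. Of 6 epithelial markers, 0 were called by edgeR and 2 had an unadjusted p under 0.05. The share of all genes with such an unadjusted p was not computed. KRT8, KRT18 and the intestinal transcription factor gene CDX2 had no overlap between the groups, with log2 fold changes of 0.47, 0.31 and 0.24. No overlap was found for 28.9% of all genes tested, and for 14.5% with OXA higher. In a fit with the library number as a replicate block, KRT8 and KRT18 were higher and the cadherin gene CDH1 was lower (edgeR adjusted p = 0.0271, 0.0184 and 0.0408). That fit called 23% of all genes tested. The part of these marker shifts in the results below was not tested. PTPRC, a marker of blood cells, had at most 1 raw count in an NT library and at most 2 in an OXA library. Of 5 markers of other cell types, 1 (the collagen gene COL1A1) passed the filter on low counts, at 175 normalized counts in NT. Because these are bulk samples, a change in the share of some cells and a change of RNA per cell cannot be told apart.

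The groups were compared over 13727 genes with the quasi-likelihood test of edgeR. A gene was called when its p, adjusted over all of these genes (Benjamini-Hochberg), was under 0.05. Counts below are normalized for library size by TMM, means carry the SD of n = 3 libraries, and each fold change sets OXA against NT. Of the 5 genes, 2 rose and 1 fell, where 5.07% of all genes tested were called, 2.78% as higher and 2.29% as lower. MDM2 and PPM1D also changed by more than 1.5-fold, where 3.41% of all genes were called, 1.97% as higher and 1.44% as lower. In 4 of the 5 genes every OXA library lay above, or every one below, all NT libraries, which held for 28.9% of all genes tested. With upper-quartile factors, higher genes made up 41.4% of all calls, against 54.7% with TMM, and the calls for the 5 genes were the same.

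**Figure D1:**
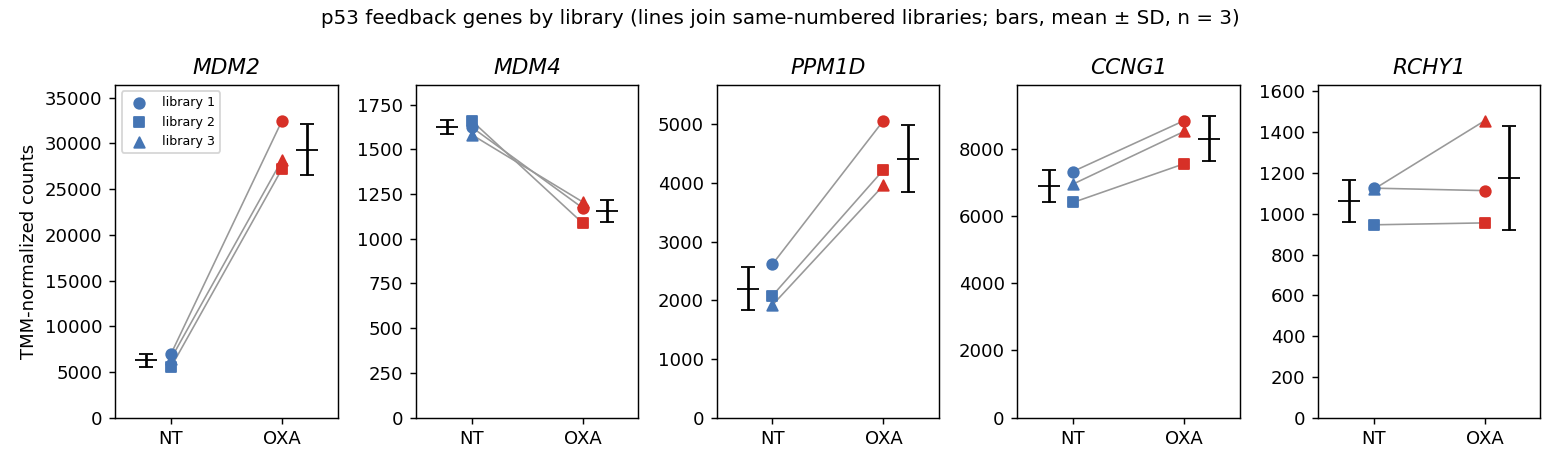
TMM-normalized counts (y axis, from 0, its own scale in each panel) of the 5 genes in each NT library (blue) and OXA library (red). Symbols give the library number, grey lines join libraries of the same number, and black bars are the mean ± SD of 3 libraries. MDM2 and PPM1D lie higher and MDM4 lower in every OXA library, CCNG1 shifts upward by less, and RCHY1 overlaps between the groups with OXA library 3 highest.

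MDM2 (ENSG00000135679, chr12:68808177-68845544 of GRCh38, plus strand) has transcripts from 2 clusters of start sites in RefSeq. The one farther downstream, at position 68809017, lies behind the first exon and is the promoter known to respond to p53. The stretch just upstream of it is shown because it holds both matches to a pair of p53 half-sites that were found in the MDM2 promoter windows. It runs from chr12:68808893-68809001 on the plus strand (RefSeq, GRCh38.p14), is intronic to the transcripts that begin at the upstream start and ends before any annotated exon. Capitals mark the 2 matches.
MDM2 downstream promoter: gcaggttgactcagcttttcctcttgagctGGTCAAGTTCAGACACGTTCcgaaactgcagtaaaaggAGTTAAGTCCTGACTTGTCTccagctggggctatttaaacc

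The search used the p53 half-site consensus, repeated without a spacer to make 20 bases, a pattern that is its own reverse complement and so covers both strands. The first match deviates from the consensus at 2 positions and the second at 3, and 18 bases lie between them. Among 35116 RefSeq promoter windows of 300 bases (250 before the start and 50 after), 0.649% held a match with at most 2 deviations and 5.2% one with at most 3. The windows at the upstream MDM2 start held none, with 5 deviations at best. A match is a description of the letters and not a measured binding site, and gene-level counts do not separate transcripts of the upstream and downstream starts.

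MDM2 rose 4.66-fold. It had 6940, 5502 and 6425 normalized counts in NT libraries 1 to 3 and 32503, 27231 and 28204 in OXA libraries 1 to 3, so that the lowest OXA library was far above the highest NT library. The mean went from 6289 ± 729 in NT to 29313 ± 2806 in OXA (edgeR adjusted p = 0.000445, log2 fold change 2.22 with a standard error of 0.12 and a 95% confidence interval 1.94 to 2.50). This was the largest change of the 5 genes, the 24th largest rise among the 13727 genes and the 4th smallest unadjusted p. Of a list of 24 other p53 target genes, chosen with earlier results of these data known, 2 rose by more, CDKN1A and TP53I3. Leaving out any 1 of the 6 libraries gave log2 fold changes of MDM2 between 2.10 and 2.30, and the gene was called each time. The exons of MDM2 share 785 bases with a long non-coding RNA gene on the opposite strand (ENSG00000257181) and 439 with a processed pseudogene on the same strand (ENSG00000256664), neither of which was analysed here. They also share 133 bases with CPM, the gene of carboxypeptidase M on the opposite strand, which had 285 to 347 raw counts in a library and did not differ between the groups beyond its standard error (edgeR adjusted p = 0.986, log2 fold change 0.0060 ± 0.13 SE).

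MDM4 (ENSG00000198625, chr1:204516379-204558120 of GRCh38, plus strand) went the other way and fell to 0.712 of its NT level. Its normalized counts were 1624, 1661 and 1582 in NT and 1172, 1087 and 1206 in OXA, and the groups were well separated, with a mean of 1623 ± 39.2 in NT and 1155 ± 61.0 in OXA (edgeR adjusted p = 0.0273, log2 fold change -0.49 with a standard error of 0.092 and a 95% confidence interval -0.70 to -0.28). The spread between NT libraries was the smallest of the 5 genes, at 0.035 on the log2 scale. The call was fragile: of the 6 fits lacking 1 library, MDM4 passed in that without NT library 1 (edgeR adjusted p = 0.0175). Without NT library 2 or 3 or OXA library 1, 2 or 3 the edgeR adjusted p lay between 0.0636 and 0.143, at log2 fold changes between -0.55 and -0.45. Those fits also called fewer genes in all, between 85 and 299, where the fit with all 6 libraries called 696. The confidence interval includes a fall of 1.5-fold, and a test against that size gave no call. With the replicate block MDM4 was called (log2 fold change -0.49, edgeR adjusted p = 0.00895), where that fit called 23% of all genes tested.

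PPM1D (ENSG00000170836, chr17:60600193-60666280 of GRCh38, plus strand) rose 2.01-fold. It had 2613, 2076 and 1916 normalized counts in NT libraries 1 to 3 and 5065, 4225 and 3960 in OXA libraries 1 to 3, with library 1 the highest of its group on both sides. The mean went from 2202 ± 365 to 4417 ± 577 (edgeR adjusted p = 0.0118, log2 fold change 1.00 with a standard error of 0.15 and a 95% confidence interval 0.67 to 1.34). Between same-numbered libraries the log2 differences were 0.95, 1.02 and 1.05, closer to each other than the libraries of either group. Leaving out each library in turn kept the call in 3 of 6 cases, and without NT library 3, OXA library 1 or OXA library 2 its edgeR adjusted p was 0.0566, 0.0669 and 0.0535. A test against a 1.5-fold change gave no call either (edgeR adjusted p = 0.243). With the replicate block PPM1D was called (log2 fold change 1.01, edgeR adjusted p = 0.000665), where that fit called 23% of all genes tested.

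CCNG1 (ENSG00000113328, chr5:163437569-163446151 of GRCh38, plus strand) had 7318, 6398 and 6943 normalized counts in NT and 8832, 7549 and 8511 in OXA. All 3 OXA libraries were above the highest NT library, but the gap was small, with a mean of 6886 ± 463 in NT and 8297 ± 667 in OXA. This difference was not called (edgeR adjusted p = 0.159, log2 fold change 0.27 with a standard error of 0.097 and a 95% confidence interval 0.044 to 0.49). When the fit carried the library number as a replicate block, the gene was called (standard error 0.046, edgeR adjusted p = 0.0148), where that fit called 23% of all genes tested, 12.1% as higher and 10.9% as lower. The blocked call was lost when the pair of libraries numbered 2 or that numbered 3 was left out (edgeR adjusted p = 0.279 and 0.168), with 1 residual degree of freedom left in these fits. The 3 differences between same-numbered libraries were 0.27, 0.24 and 0.29 on the log2 scale. The rise of CCNG1 was smaller than that of each of the 24 other p53 target genes. That list was chosen with earlier results of these data known. All 24 had no overlap and log2 fold changes of at least 0.738, so the ranking is a description.

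RCHY1 (ENSG00000163743, chr4:75479033-75514764 of GRCh38, minus strand) had 1125, 946 and 1120 normalized counts in NT and 1113, 955 and 1457 in OXA. The groups overlapped, and OXA library 3 was the only one to lie above all NT libraries. The mean was 1064 ± 102 in NT and 1175 ± 256 in OXA (edgeR adjusted p = 0.675, log2 fold change 0.14 with a standard error of 0.17 and a 95% confidence interval -0.24 to 0.53). Without OXA library 3 the sign changed, to -0.073 on the log2 scale (edgeR adjusted p = 0.844). The replicate block gave no call (edgeR adjusted p = 0.372), other than without the pair numbered 1 (log2 fold change 0.21, edgeR adjusted p = 0.00669), and without the pair numbered 3 the blocked log2 fold change was -0.011. RCHY1 shares 315 exonic bases with THAP6 on the opposite strand, a gene with 522 to 750 raw counts in a library (edgeR adjusted p = 0.487, log2 fold change 0.18 ± 0.13 SE), and the strand setting of the counting is not given in the sources used here.

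**Figure D2:**
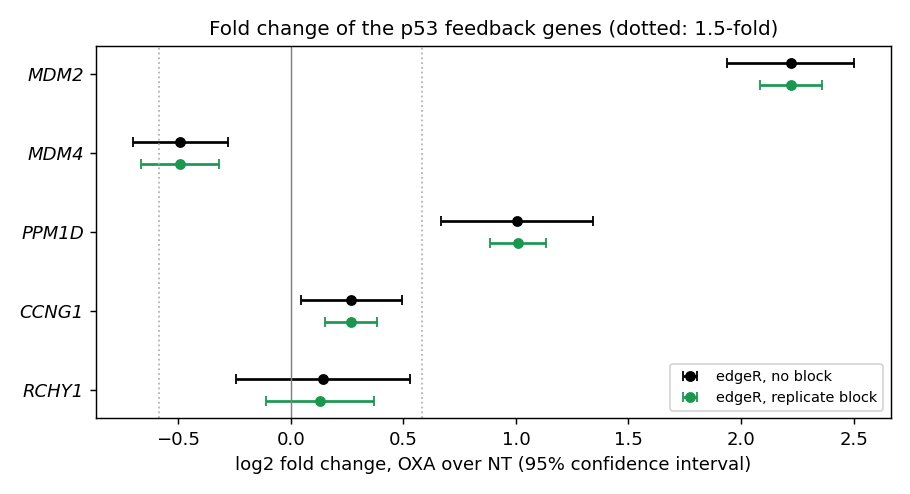
Log2 fold change of OXA over NT (x axis) with its 95% confidence interval for each of the 5 genes, from edgeR without a block (black) and with a replicate block (green). Dotted lines mark a 1.5-fold change in either direction. The interval of MDM2 lies far above the upper line, that of PPM1D just above it, that of MDM4 spans the lower line, and those of CCNG1 and RCHY1 lie below the upper line.

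Per kilobase of the canonical GENCODE transcript, the order of the levels in NT was CCNG1, MDM2, PPM1D, RCHY1 and MDM4, at 2818 ± 189, 840 ± 97.3, 462 ± 76.5, 241 ± 23.2 and 161 ± 3.90 normalized counts per kilobase. No neighbours in this order overlapped between libraries. In OXA, MDM2 stood first at 3914 ± 375 and CCNG1 second at 3395 ± 273, with the lowest MDM2 library at 3636 just above the highest CCNG1 library at 3614. PPM1D was at 926 ± 121, RCHY1 at 267 ± 58.2 and MDM4 at 115 ± 6.07 normalized counts per kilobase. These levels rest on the length of 1 transcript per gene, 7490 bases for MDM2 and 2444 for CCNG1. GENCODE lists 36 and 12 transcripts for these genes, and which of them the cells expressed was not measured. With other lengths the order could differ, above all at the narrow gap between MDM2 and CCNG1 in OXA. The ratios per kilobase given below rest on canonical lengths as well.

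Ratios within a library do not depend on how the libraries are scaled, and they were compared for all 10 pairs of the 5 genes by an exact permutation test over libraries, two-sided. With 3 libraries against 3 this test cannot give a p under 0.10. MDM2 over MDM4, per kilobase, was 5.73, 4.45 and 5.45 in NT libraries 1 to 3 and 37.2, 33.6 and 31.4 in OXA libraries 1 to 3. Every OXA library thus had a higher ratio than every NT library, by 2.72 in the mean on the log2 scale or 6.57-fold (exact permutation p = 0.10, adjusted p = 0.111 over 10 pairs). For the other pairs, values are log2 ratios of counts that were not divided by length. MDM2 over PPM1D changed by 1.21 on the log2 scale, from between 1.41 and 1.75 in NT to between 2.68 and 2.83 in OXA, with the same exact permutation p. PPM1D over CCNG1 changed by 0.74 and MDM4 over RCHY1 by -0.62, again with no overlap between the groups. In 9 of the 10 pairs the groups did not overlap and the p was the smallest possible, and the exception was CCNG1 over RCHY1 (change 0.14 on the log2 scale, exact permutation p = 0.40, adjusted p = 0.40). The 10 pairs are made of 5 genes, and each of the 9 holds MDM2, MDM4 or PPM1D, which were called singly. They are therefore not 9 separate results. The share of other gene pairs without overlap was not computed, and 28.9% of single genes had none.

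**Figure D3:**
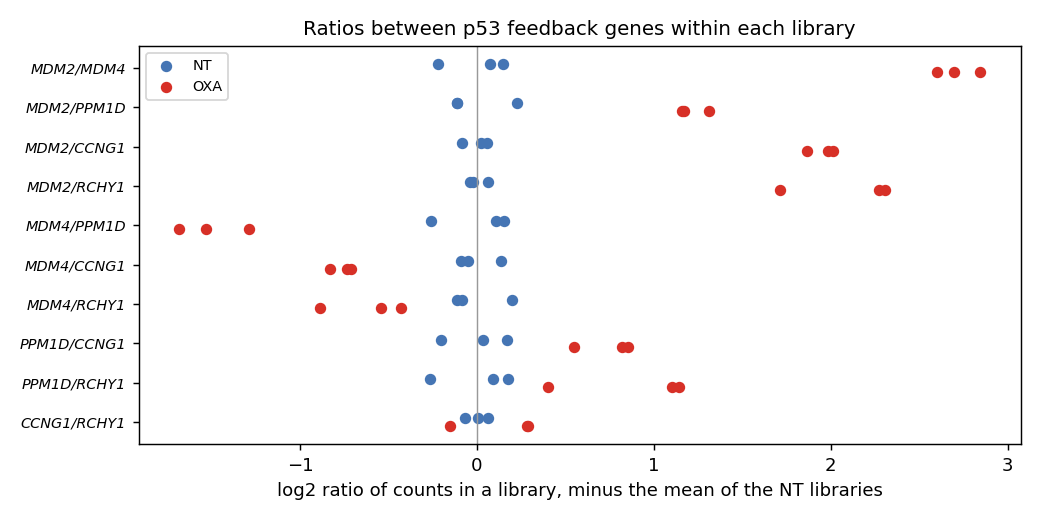
Log2 ratio of the counts of 2 genes in each library, minus the mean of the NT libraries for that pair (x axis), for the 10 pairs (rows), with NT libraries in blue and OXA libraries in red. The groups are separate in 9 pairs, farthest for MDM2 over MDM4, and overlap for CCNG1 over RCHY1.

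Pairs of p53 half-sites were also searched 2500 bases to either side of the canonical start of the tested genes, and those with at most 2 deviations are shown for the 5 genes because they set MDM2 beside the other 4. Capitals mark the bases that match the consensus and lower case the deviations. At most 2 deviations were found for 11.5% of 13673 genes, at most 1 for 0.922%, and at most 2 for 14 of the 24 other p53 target genes.
MDM2, chr12:68808923-68808942: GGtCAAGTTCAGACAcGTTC
CCNG1, chr5:163437926-163437945: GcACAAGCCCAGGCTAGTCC
CCNG1, chr5:163439946-163439965: GAcCTAGTCaAGACTTGCTT
MDM4, chr1:204516933-204516952: GtGCTTGTTTGAAaATGCTT

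These sequences come from the GRCh38 genome (hg38), on the plus strand, and all 4 lie in introns, downstream of the start. CCNG1 held the closest match of the 5 genes, with 1 deviation at 331 bases after the start, although its change was small. MDM4, the gene that fell, held 1 match with 2 deviations. The best matches of PPM1D and RCHY1 had 3 deviations, and 65.6% of the genes held a match with at most 3. No match says only that these letters are not in the window.

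The genes around the 5 were described from 6 lists of regulators with 54 genes, of which 53 were tested. Of the 53, 1 was called, or 1.89%, where 5.07% of all genes were called. Their median log2 fold change was 0.0025, where that of all genes tested was 0.023. The 1 gene called was CHEK1. The replicate block gave calls for 10 of the 53 (18.9%), 5 higher and 5 lower, where that fit called 23% of all genes. Leaving out the pair of libraries numbered 1, 2 or 3 gave 14, 2 and 7 calls under the block. The count of 1 became 0 without NT library 3 or OXA library 1, 2 or 3, and 2 without NT library 1.

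None of the 11 other ubiquitin ligases of p53 was called, and 2 of them had an unadjusted p under 0.05. The share of all genes tested under that unadjusted p was not computed, so such counts here and below are a description. Many genes were under it: CCNG1, at an edgeR unadjusted p of 0.0251, stood at rank 2164 of the 13727 genes. Their median log2 fold change was 0.035, and they ranged from -0.34 to 0.25. HUWE1, the most abundant of the 11 and a ligase of many nuclear proteins, was at 22028 ± 666 normalized counts in NT and 22135 ± 238 in OXA (edgeR adjusted p = 0.973, log2 fold change 0.0070 with a 95% confidence interval -0.17 to 0.19). With the replicate block, RFFL was higher and SIAH1 lower (edgeR adjusted p = 0.0318 and 0.0294, at log2 fold changes of 0.25 and -0.34). SIAH1, a RING ligase, had 786, 745 and 829 normalized counts in NT and 588, 593 and 689 in OXA. RFFL and SIAH1 were named after their values were seen, as were the other genes named for a call under the block.

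Of the 7 deubiquitinases of p53, MDM2 or MDM4, 0 were called by edgeR and 1 had an unadjusted p under 0.05. USP7, which removes ubiquitin from both p53 and MDM2, was at 10590 ± 1548 normalized counts in NT and 10967 ± 899.95 in OXA (edgeR adjusted p = 0.857, log2 fold change 0.051 with a 95% confidence interval -0.24 to 0.34). USP15, which stabilises MDM2, went from 2245 ± 385 to 3173 ± 355 (log2 fold change 0.50, edgeR adjusted p = 0.0902, and 0.00671 with the replicate block). Of 8 nucleolar and ribosomal proteins that can bind and inhibit MDM2, 0 were called by edgeR and 0 had an unadjusted p under 0.05, with log2 fold changes between -0.070 and 0.17. NPM1, a nucleolar chaperone, was at 72827 ± 13543 normalized counts in NT and 74744 ± 6694 in OXA (edgeR adjusted p = 0.912, log2 fold change 0.038 with a 95% confidence interval -0.30 to 0.37). RPL11 was called with the block, by 0.17 on the log2 scale (edgeR adjusted p = 0.0488).

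The 7 DNA damage kinases and substrates whose phosphorylation PPM1D opposes all had log2 fold changes below 0, with a median of -0.24, where that of all genes tested was 0.023. Of the 13727 genes tested, 7313 had a log2 fold change above 0. In the list, 4 genes were lower with no overlap, where 14.4% of all genes were, and 4 had an unadjusted p under 0.05. CHEK2 and MAPK14, named after their values were seen, lay within 1 standard error of 0 (-0.045 ± 0.10 and -0.055 ± 0.11 SE). CHEK1, the S phase and G2 checkpoint kinase, fell from 3309 ± 460 to 2199 ± 142 normalized counts (edgeR adjusted p = 0.0358, log2 fold change -0.59 ± 0.12 SE). Its libraries had 3824, 2940 and 3161 normalized counts in NT and 2249, 2038 and 2309 in OXA, with no overlap. PRKDC, the catalytic subunit of DNA-dependent protein kinase and the most abundant of the list, went from 34457 ± 509 to 29991 ± 1622 and was not called (log2 fold change -0.20, edgeR adjusted p = 0.211). With the replicate block, PRKDC and ATR, a kinase that senses single-stranded DNA, were lower as well (edgeR adjusted p = 0.0367 and 0.0256). H2AX, listed in the table under its older symbol H2AFX, overlapped between the groups (edgeR adjusted p = 0.621, log2 fold change -0.26 ± 0.26 SE).

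Of 9 subunits of PP2A, the phosphatase that cyclin G1 recruits, 0 were called by edgeR and 2 had an unadjusted p under 0.05. The catalytic subunit PPP2CA was at 10403 ± 1194 normalized counts in NT and 10385 ± 710 in OXA (edgeR adjusted p = 0.994, log2 fold change -0.0025 with a 95% confidence interval -0.25 to 0.25). With the replicate block, the other catalytic subunit PPP2CB and the regulatory subunit PPP2R5B were higher and PPP2R5A lower, at log2 fold changes of 0.36, 0.62 and -0.23 (edgeR adjusted p = 0.00807, 0.0161 and 0.0293). Of 11 tested paralogs of PPM1D and CCNG1, 0 were called by edgeR, with or without the block, and 1 had an unadjusted p under 0.05. PPM1G, the most abundant, was at 11275 ± 775 normalized counts in NT and 11422 ± 761 in OXA (edgeR adjusted p = 0.932, log2 fold change 0.019 with a 95% confidence interval -0.20 to 0.24). Whether PPM1D differed from its paralogs was not tested.

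Of the 24 other p53 target genes, 23 rose, with a median log2 fold change of 1.28 over all 24, where 2.78% of all genes tested were called as higher. CDKN1A, which encodes the cyclin-dependent kinase inhibitor p21, and TP53I3, a quinone oxidoreductase gene, had the 2 largest log2 fold changes of the list, at 2.93 and 2.83. BTG2, an antiproliferative gene, went from 1119 ± 74.3 to 4185 ± 309 normalized counts (edgeR adjusted p = 0.000445, log2 fold change 1.90 ± 0.10 SE). TP53INP1, which encodes a stress-induced nuclear protein, went from 989 ± 120 to 3001 ± 208 (edgeR adjusted p = 0.00167, log2 fold change 1.60 ± 0.12 SE). The gene that missed the threshold was BBC3, which encodes the BH3-only protein PUMA (edgeR adjusted p = 0.107, log2 fold change 1.31 ± 0.40 SE), and it passed with the replicate block (edgeR adjusted p = 0.00958). Of the 24 genes, 22 had a larger log2 fold change than PPM1D. The list was chosen with earlier results of these data known, so its count of rises and the places of the 5 genes against it are a description.

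**Figure D4:**
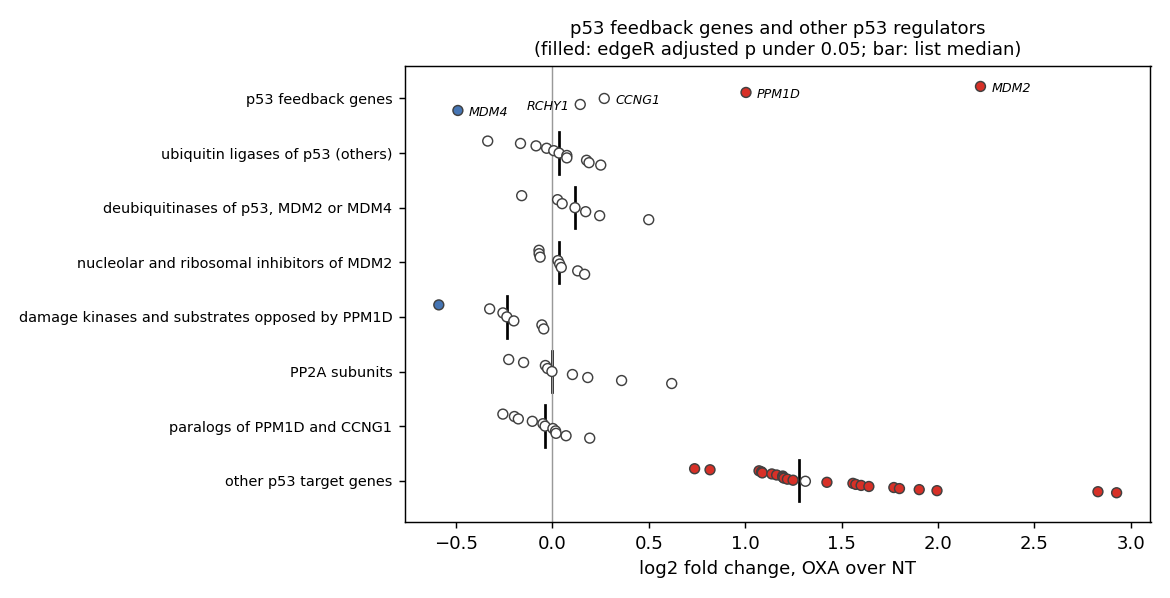
Log2 fold change of OXA over NT (x axis) for the 5 p53 feedback genes, named, and for the genes of 7 lists (rows), 1 point per tested gene. Filled points had an edgeR adjusted p under 0.05 (red higher, blue lower), open points did not, and black bars are list medians. MDM2 lies among the larger changes of the other p53 target genes, PPM1D at their lower end, and the lists of regulators are spread around 0 except for the damage kinases, which all lie below it.

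The genes whose pattern over the 6 libraries was most like that of each of the 5 were taken from the 12065 other genes with a mean of at least 50 normalized counts, by Pearson's r of log2 CPM values. The 6 libraries fall into 2 groups, so r is led by the difference between them for genes that differ, and the values are a description. For RCHY1 the log2 SD within the groups, 0.14 in NT and 0.31 in OXA, was near or above its log2 fold change of 0.14. For MDM2 they were the myosin gene MYH15, EMP1 and the sestrin gene SESN1 (r = 0.999, 0.998 and 0.998), with log2 fold changes of 0.68, 1.14 and 1.42. For MDM4 they were CDCA8, a subunit of the chromosomal passenger complex, the alanyl-tRNA synthetase gene AARS and FBXL20 (r = 0.999, 0.998 and 0.998), all with a log2 fold change below 0. For PPM1D they were GPATCH4, MINDY3 and NKX1-2 (r = 0.998, 0.997 and 0.997). For CCNG1 they were MTO1, PCID2 and the kinase gene MAP2K4 (r = 0.999, 0.999 and 0.996). For RCHY1 the likeness was lower, with SLC25A16, COX16 and TMEM182 (r = 0.987, 0.976 and 0.974).

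**Figure D5:**
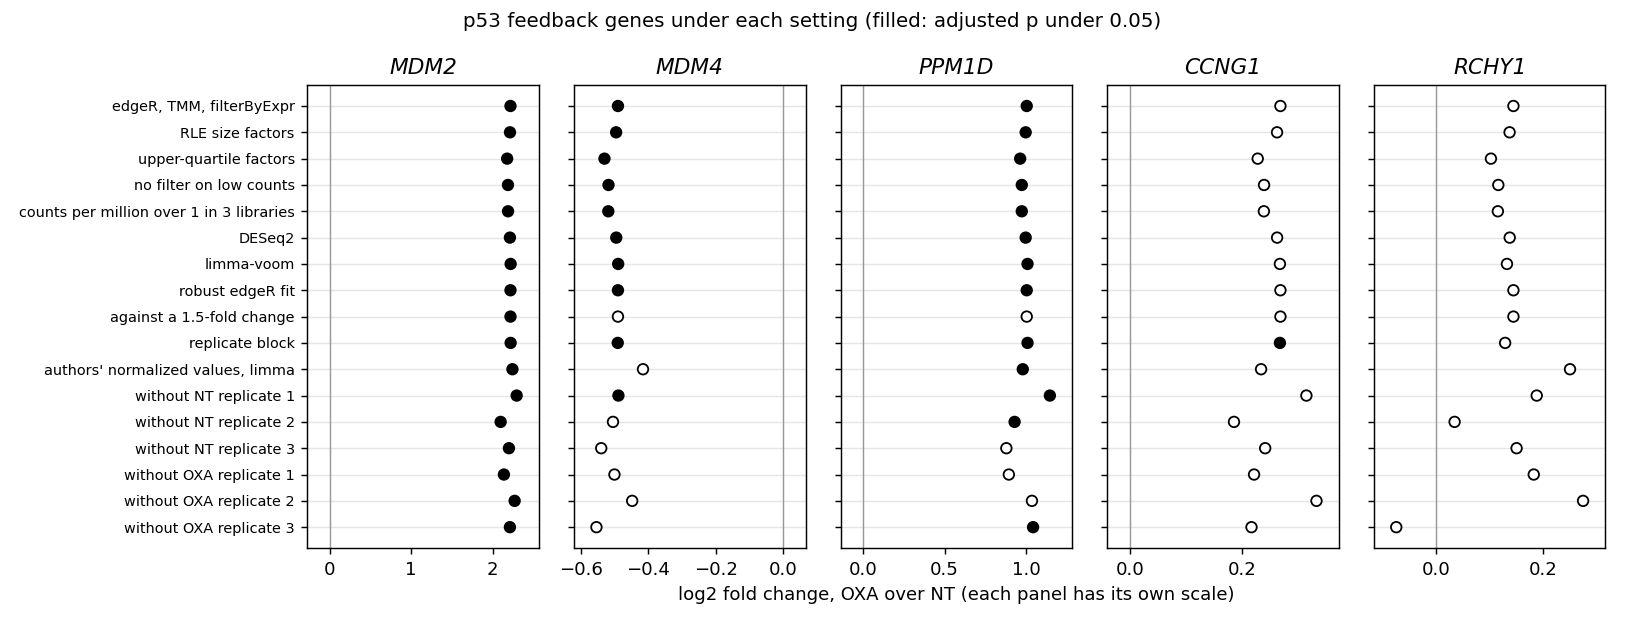
Log2 fold change of OXA over NT (x axis, its own scale in each panel) of the 5 genes under the settings of the analysis named beside the rows, with filled points for an adjusted p under 0.05. MDM2 is filled in every row. PPM1D and MDM4 lose the call in several rows that leave out 1 library and in the test against a 1.5-fold change. MDM4 also loses it with the authors' normalized values, where PPM1D keeps it. CCNG1 is filled with the replicate block alone, and RCHY1 crosses 0 without OXA library 3.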

How the data were processed

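Whole-transcriptome libraries from polyadenylated RNA of HCT116 cells were compared, 3 NT and 3 OXA, grouped by the sample labels. The authors deposited raw counts per gene, whole numbers that entered the tests unchanged, and normalized values (signal), which were the raw count times a factor that differed between genes and libraries and were used for an alternative. The paper states mapping to GRCh38 with STAR and normalization with DESeq2, and the submitters' processing notes name Trimmomatic 0.32, STAR 2.7.5b, RSEM 1.3.3 and DESeq2 2.13 without roles. If RSEM made the counts, they are rounded estimates. The annotation and strand setting of the counting are not given in the sources used here.

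Low genes were removed with filterByExpr, set to a count of 10 and a total of 15, and the rest were normalized by TMM and compared by edgeR's quasi-likelihood test. R 4.3.3 was used with edgeR 4.0.16, and DESeq2 1.42.0 and limma 3.58.1 served for alternatives. The standard error was the size of the log2 fold change divided by the square root of F. All 5 genes passed the filter. Positions and lengths came from GENCODE release 44, promoters from RefSeq.

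The 5 genes and the lists were chosen with earlier results of these data known. Named were the 5 genes, per list up to 4 genes called (smallest p first) and the most abundant gene not called, the 3 genes most like each of the 5, and genes said to be named after their values were seen.

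Same-numbered libraries deviated together from their group means, with correlations between 0.307 and 0.547 over genes, against -0.467 to 0.0904 for different numbers. Deviations from a group mean sum to 0 for each gene. Positive values for same numbers therefore pull those for different numbers below 0, and the 2 sets are not independent. The numbers come from the labels, which do not say what they stand for. They were therefore taken as pairs in a second fit, with a replicate block, a choice that rests on the same data. It is quoted where it changes a call given in the text and for MDM4, PPM1D and RCHY1. No library repeated another: the chi-square per gene, about 1 for counting error alone, was 83.1 and 75.7 between NT library 1 and the other NT libraries and 19.2 to 29.6 for the remaining pairs. NT library 1 thus stood apart. Without it the log2 fold changes of MDM2, MDM4, PPM1D, CCNG1 and RCHY1 were 2.30, -0.49, 1.15, 0.32 and 0.19. The same genes were called as with all libraries. Intervals cover the spread between libraries, and counting error is a lower limit since PCR duplicates could not be told apart.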

Additional observations from a re-analysis of the deposited data

How the results depend on the processing

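MDM2 kept its call under each alternative, with log2 fold changes between 2.10 and 2.30. Against a 1.5-fold change, MDM4 (-0.49) and PPM1D (1.00) lost their calls, so that 1 of the 5 genes was higher and 0 lower, with 50 calls over all genes and 0 in the regulator lists. In the authors' normalized values, MDM4 (-0.42, limma adjusted p = 0.108) lost its call, leaving 0 of the 5 lower, with 423 calls over all genes and 0 in the regulator lists, and the change of CCNG1 over RCHY1 reversed to -0.015. DESeq2 gave 1175 calls over all genes and 3 in the regulator lists. The replicate block added a call for CCNG1 (0.27) and gave 3157 calls over all genes and 10 in the regulator lists. It changed no other call of the 5 genes. Chosen after seeing the data, the block with a robust fit and with limma-voom also called CCNG1 (0.27 in both), with 3099 and 3212 calls over all genes and 10 and 11 in the regulator lists. Also chosen after seeing the data, the block without the pair of libraries numbered 1, 2 or 3 gave 5739, 1629 and 3079 calls over all genes and 14, 2 and 7 in the regulator lists. Without pair 1, 4 of the 5 genes were higher, with calls for CCNG1 (0.27) and RCHY1 (0.21). CCNG1 was not called without pair 2 (0.25) or 3 (0.25), and RCHY1 reversed to -0.011 without pair 3. These fits have 1 residual degree of freedom, and their p-values, down to 0 for MDM2, are not reliable.

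Each library left out in turn gave log2 fold changes between -0.55 and -0.45 for MDM4, 0.88 and 1.15 for PPM1D, 0.19 and 0.33 for CCNG1 and -0.073 and 0.27 for RCHY1. The number of the 5 genes called was between 1 and 2 higher and between 0 and 1 lower, calls over all genes lay between 85 and 1194, the lowest without OXA library 1 and the highest without NT library 1, and calls in the regulator lists between 0 and 2. The log2 change of MDM2 over MDM4 lay between 2.61 and 2.79. The cause of these differences was not tested. No scaling moved the median log2 fold change of all genes by more than 0.1.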
